A study of Mus musculus with 24 samples.

Results

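Cilium transport and axoneme genes were examined in the choroid plexus of 24 mice. Members were chosen by gene symbol: names beginning Ift, Bbs, Dnah, Dnaic, Dnali, Tekt, Rsph or Spag followed by a digit, names beginning Kif3 or Tctn, and the single genes Foxj1, Arl3, Arl6, Arl13b, Cetn2, Dynlrb2, Spa17, Rfx1, Rfx2, Rfx3, Mks1 and Ofd1. The array carried 95 probes for 58 such genes, out of 16593 genes with a probe. A gene was counted as detected when 3 or more arrays gave a probe a detection p under 0.01, and its brightest probe stood for it. By that rule 44 of the 58 members were detected, among 8232 detected genes in all. The study compared the choroid plexus transcriptome of wild-type (WT) and J20 mice at 3 ages, with 1 Illumina BeadChip array per animal. WT mice were sampled at 3 months (n = 3), 5-6 months (n = 4) and 11-12 months (n = 6), and J20 mice at 3 months (n = 4), 5-6 months (n = 4) and 11-12 months (n = 3). Each array is labelled as a separate numbered animal. J20 mice are a model of Alzheimer's disease that carries a human amyloid precursor protein transgene with the Swedish and Indiana familial mutations, driven by the platelet-derived growth factor B promoter, which is active mainly in neurons. The sources used here give no background strain, sex or pooling of tissue.

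Cilia are built and maintained by intraflagellar transport (IFT), in which kinesin-2 motors carry IFT-B and IFT-A protein trains to the tip and a dynein returns them, while the BBSome moves membrane proteins along the same trains. Motile cilia add axonemal dynein arms, radial spokes and a central pair of microtubules, and their genes are switched on by FOXJ1 and the RFX transcription factors. Choroid plexus epithelial cells carry tufts of cilia on the surface that faces the cerebrospinal fluid, and ependymal cells of the ventricle wall next to them are multiciliated.

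Of the 44 detected members, 39 were detected on all 24 arrays. The exceptions were Bbs1 on 23 arrays, Dnah11 on 20, Cetn2 on 17, Ift46 on 14 and Kif3b on 4. By role the 44 include 3 IFT-A genes (Ift122, Ift140, Ift43), 9 IFT-B genes, the kinesin-2 genes Kif3a, Kif3b and Kif3c, 7 BBS genes, 2 tectonic genes of the transition zone at the cilium base, 5 dynein genes, 5 radial spoke and central pair genes, and 3 transcription factors (Foxj1, Rfx1, Rfx2). Spag1, Spag7 and Spag9 were filed as other Spag symbols and not under one of these roles. Members follow the naming rule, which does not show that each of them, detected or not, works in cilia. The 14 members that were not detected are Rfx3, Spag5, Dnah5, Rsph6a, Ift57, Spag4, Spag11a, Spa17, Dnah8, Ift74, Ofd1, Tekt3, Spag17 and Spag11b. Their probes passed the detection threshold on 0 arrays, except for Dnah8 on 1 array, so they were not well above background and are given no values.

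Promoters were read because the RFX factors among the members bind a known motif, the X-box. RefSeq promoters (GRCm38.p6, 250 bases before to 50 bases after the start) were matched for 38 of the 44 members, all but Rsph1, Ift81, Ift122, Foxj1, Ift80 and Spag1. The X-box was searched as GTNNCC, 0 to 3 bases, then GGNAAC, on both strands, and was found in 7 of 38 members (18.4 percent) and in 2.68 percent of 27025 genes. The shorter letters GTTGCC, which are one form of GTNNCC and so can lie inside an X-box, were found in 19 of 38 members (50 percent) and in 14.1 percent of genes. The forkhead letters TGTTTAC were found in 0 of 38 members and in 4.05 percent of genes, which says only that these letters are not in these windows. The 7 members with an X-box are shown with the matched letters in capitals, each 5′ to 3′ on the strand of the gene.
Bbs7 (chr3:36613489-36613518, minus strand): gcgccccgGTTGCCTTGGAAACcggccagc
Tctn3 (chr19:40612351-40612380, minus strand): ctcccagcgGTTGCCAGGTAACgggaacca
Bbs1 (chr19:4906602-4906631, minus strand): agctgGTTGCCAAGGCGACgcctgggaaaa
Bbs4 (chr9:59353461-59353490, minus strand): agctgGTCGCCCGGGAAACggtcggcttcc
Spag6l (chr16:16829314-16829334, minus strand): tgtcgGTTGCCCTGGAGACgc
Ift22 (chr5:136908109-136908138, plus strand): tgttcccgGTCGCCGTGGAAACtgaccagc
Tctn2 (chr5:124598679-124598708, plus strand): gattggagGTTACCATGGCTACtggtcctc
The matches begin at -121 from the start in Bbs7, -140 in Tctn3, 1 in Bbs1, 23 in Bbs4, 34 in Spag6l, -33 in Ift22 and -62 in Tctn2. In Bbs1, Spag6l and Tctn2 the match is on the opposite strand, so the capitals are the reverse complement of the pattern. Ift22 has a further match at -63, also on the opposite strand, which is not shown. A match of letters is a description of the sequence and not a measured binding site.

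The arrays were taken as 3 BeadChips of 8, a division that follows the order of the samples. The sample titles name no BeadChip, so values within a BeadChip rest on this division. By it the J20 animals of 11-12 months are all on BeadChips 2 and 3. Mean intensity ran from 358.4 to 765.4 per array, and 34.97 to 41.64 percent of probes were detected. On the first principal component of all 11464 tested probes, which held 48.9 percent of the variance, WT 3-month animal 15, J20 5-6-month animal 18 and J20 11-12-month animal 21 stood apart, at -64.8, -62.7 and -50.2 against a lowest other value of -28.9. All 3 lie on BeadChip 2 and were left out together as an alternative chosen after seeing the data. The 8 choroid plexus epithelium markers with a probe (Ttr, Kl, Folr1, Aqp1, Clic6, Otx2, Calml4 and Sostdc1) were detected on every array. The probe for App stood at -0.03 (log2, standard error 0.171) in J20 against WT over the ages (adjusted p = 0.9999 in limma), and whether it reads RNA of the human transgene was not tested.

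No member passed the test between J20 and WT mice of 11-12 months: 0 of 44 had a Benjamini-Hochberg adjusted p under 0.05 in limma (smallest adjusted p = 0.700), with 0 percent of all tested probes called. The members' log2 differences, J20 minus WT, lay above 0 for 31 of 44 genes (70.5 percent) against 57.0 percent of all detected genes. Their median was 0.18 against 0.05 over all detected genes, or 0.10 with the deposited normalized values, and single genes ran from -0.68 to 0.52. At an unadjusted p under 0.05 there were 5 members, or 11.4 percent, against 5.85 percent of all probes. All 5 had higher values in J20: Rfx1, Foxj1, Ift122, Ift88 and Bbs7. Here and below members are counted on 1 probe per gene, while a share of all probes includes every tested probe of a gene. In whole tissue, a difference in the number of ciliated cells and a difference in RNA per cell cannot be told apart.

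Foxj1 encodes the transcription factor that directs the motile cilium programme. In J20 mice of 11-12 months its log2 intensities were 7.92, 7.24 and 7.93 in animals 21, 28 and 35. In the 6 WT mice of that age they ran from 6.93 to 7.53 with a median of 7.19. Animals 21 and 35 were above all 6 WT mice and animal 28 lay inside their range, so the groups overlapped. The difference was 0.48 (standard error 0.211, 95% interval 0.04 to 0.91, adjusted p = 0.700 in limma). It was 0.65 within BeadChip 2 and 0.43 within BeadChip 3, and 0.36 without the 3 arrays that stood apart, of which animal 21 is one. With the deposited normalized values it was 0.28.

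Rfx1, a member of the RFX family that binds the X-box of ciliary promoters, stood at 9.85, 9.38 and 9.82 in the same 3 J20 mice. The 6 WT mice ran from 8.80 to 9.59, with a median of 9.20. Again animals 21 and 35 lay above the WT range and animal 28 within it. The log2 difference was 0.52 (standard error 0.234, 95% interval 0.04 to 1.01, adjusted p = 0.700 in limma), 0.41 within BeadChip 2, 0.39 within BeadChip 3 and 0.44 without the 3 arrays. When arrays were weighted by their quality, limma passed Rfx1 (0.58, adjusted p = 0.0345) and Foxj1 (0.57, adjusted p = 0.0488), both higher, in a fit that called 2.33 percent of all probes, 1.5 percent higher in J20. Those weights were 0.33 for animal 21, 1.43 for animal 28 and 4.69 for animal 35. Animal 35 had the highest weight of the 24 arrays and also the lowest mean intensity. Rfx2 stood at 0.12 (adjusted p = 0.748 in limma), and at 0.05 without WT animal 13.

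Ift88 encodes a core subunit of IFT-B whose loss in mice stops cilium assembly. Its values were 8.24, 8.04 and 8.26 in the 3 J20 mice of 11-12 months. In WT mice of that age they ran from 7.77 to 7.95 (median 7.92). These groups did not overlap, and all 6 WT values also lay below every array of the other 5 groups, the nearest being WT 5-6-month animal 10, which rounds to the same 7.95. Ift88 was picked out for this after its values were seen. The genotype difference at 11-12 months was 0.29 (standard error 0.112, 95% interval 0.05 to 0.52, adjusted p = 0.700 in limma), 0.41 within BeadChip 2, 0.21 within BeadChip 3 and 0.26 without the 3 arrays. With the deposited normalized values it was 0.19.

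Ift122, a subunit of the IFT-A complex that returns cargo from the tip, was measured at 9.50, 9.26 and 9.45 in J20 and from 8.69 to 9.22 in WT mice (median 8.98). All 3 J20 values were above all 6 WT values. The difference was 0.43 (standard error 0.185, adjusted p = 0.700 in limma), 0.49 within BeadChip 2, 0.18 within BeadChip 3 and 0.39 without the 3 arrays. Groups did not overlap for 3 members in this comparison (Ift88, Ift122 and Bbs2), and for 4 percent of all detected genes. Bbs7, a BBSome subunit, stood at 10.29, 10.08 and 9.90 in J20 and between 9.72 and 9.92 in WT, with a difference of 0.26 (standard error 0.122, adjusted p = 0.700 in limma) that was 0.16 without animal 21.

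**Figure D1:**
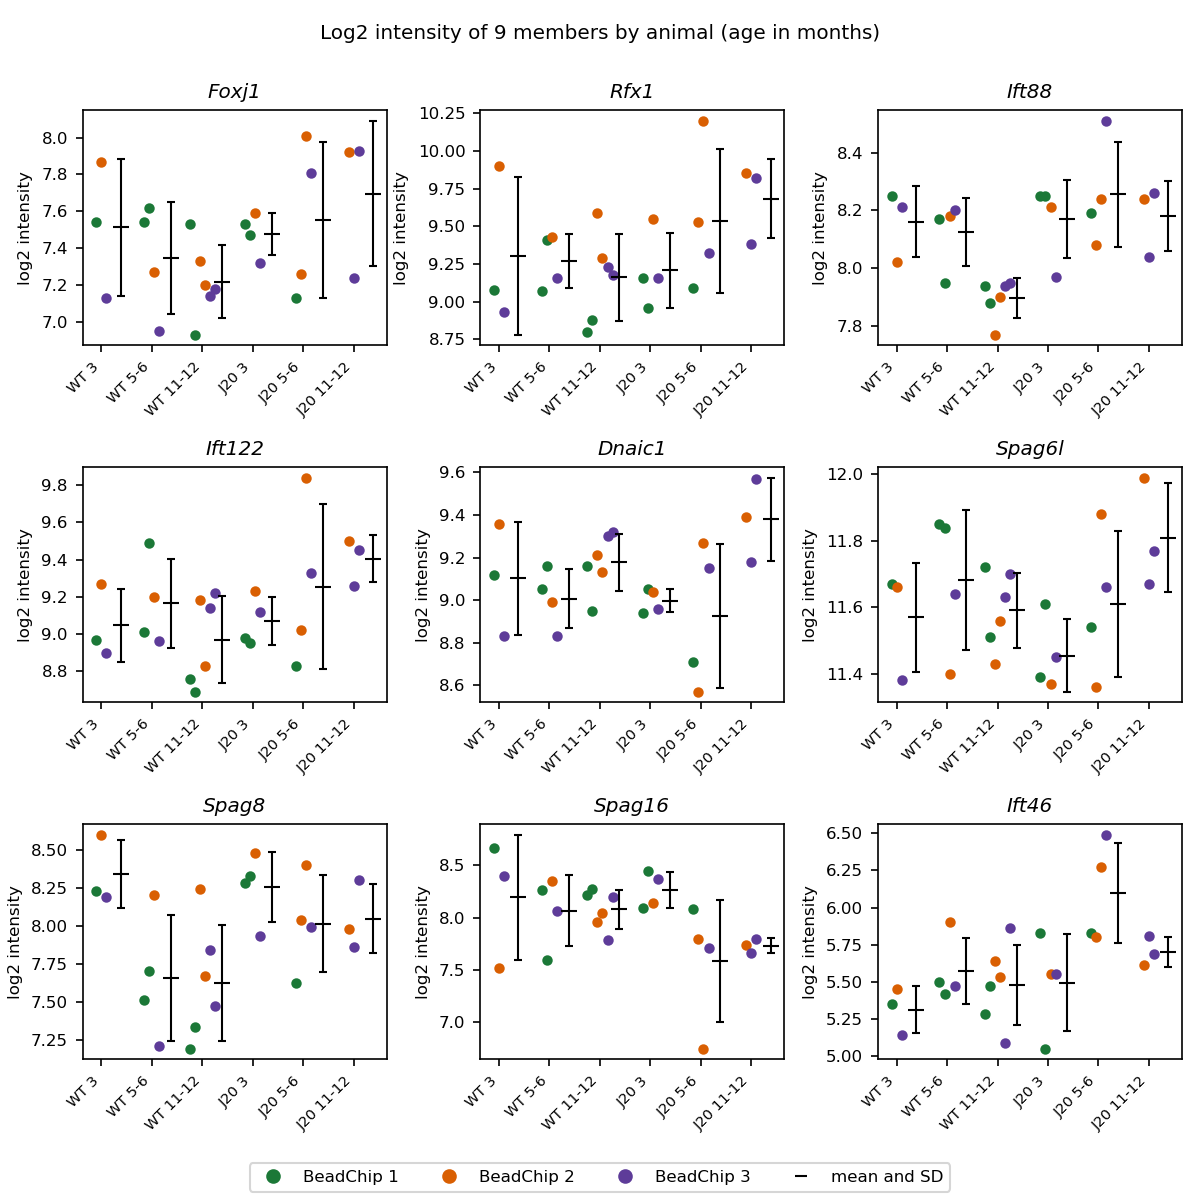
Log2 intensity (vertical axis) of 9 members in each animal, by genotype and age in months (horizontal axis), with colour for the BeadChip and a black mark for the mean with its SD. At 11-12 months the J20 values of Ift88 and Ift122 lie above all 6 WT values, while those of Foxj1 and Rfx1 overlap with WT.

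By role, the genotype difference at 11-12 months was above 0 for 3 of 3 transcription factors (median 0.48), 3 of 3 IFT-A genes (0.28), 6 of 7 BBS genes (0.26), 4 of 5 dynein genes (0.19) and 4 of 5 radial spoke and central pair genes (0.14). It was above 0 for 5 of 9 IFT-B genes (0.04) and for 0 of 2 transition zone genes (-0.14). The most negative value was that of Ift22, a small GTPase of the IFT-B train (-0.68, standard error 0.501, and -0.21 without animal 21). Kif3b, a motor subunit of kinesin-2, was not well above background on any J20 array of 11-12 months. It was detected on 2 of 6 WT arrays, so it has no fold or direction here, although it is counted among the 44. The highest value after those of Rfx1, Foxj1 and Ift122 was that of Spag8, a protein of the doublet microtubules (0.42, standard error 0.226, and 0.26 with the deposited normalized values). With the BeadChip as a block the median over the 44 members was 0.16, within BeadChip 2 it was 0.11 and within BeadChip 3 it was 0.06. Without the 3 arrays that stood apart it was 0.13.

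Ift22 and the structural genes of the axoneme illustrate the spread behind these values. Ift22 stood at 7.39, 8.99 and 8.60 in J20 animals 21, 28 and 35, and in WT mice of 11-12 months it ran from 8.13 to 9.58 with a median of 9.16. Animal 21 lay below the WT range and the other J20 animals lay inside it. Dnali1, a light intermediate chain of the inner dynein arm, stood at 9.82, 9.53 and 9.68 in J20 and from 9.18 to 9.80 in WT (median 9.29), with overlap from WT animal 12. Its difference was 0.32 (standard error 0.219, adjusted p = 0.700 in limma), and 0.33 and 0.32 within BeadChips 2 and 3. Rsph1, a protein of the radial spoke head, stood at 13.72, 13.28 and 13.28 in J20 and from 12.95 to 13.41 in WT (median 13.12). The groups overlapped, and the difference was 0.28 (standard error 0.182, adjusted p = 0.700 in limma), or 0.14 without animal 21. Tekt1 stood at 12.05 ± 0.15 (SD, n = 3) in J20 and 11.97 ± 0.16 (SD, n = 6) in WT, a difference of 0.08 that was smaller than either SD and was 0.17 without animal 21 and 0.03 without animal 28.

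Markers of neurons and astrocytes had lower values in J20 in this comparison, although none passed the test. The 7 detected neuron markers had a median J20 minus WT difference of -0.42 with 0 of 7 above 0, and the 5 detected astrocyte markers -0.55 with 0 of 5 above 0. The mean log2 level of the neuron markers ran from 5.62 to 8.77 over the WT arrays of 11-12 months and from 5.57 to 6.50 over the J20 arrays. For the astrocyte markers it ran from 7.42 to 9.41 in WT and from 7.27 to 7.67 in J20. The 8 epithelium markers stood at a median of 0.05 with 5 of 8 above 0, at mean levels of 12.87 to 13.42 in WT and 12.86 to 13.14 in J20, and the 5 detected ependyma markers (Rarres2, Mia, Hdc, Cfap65, Pltp) at -0.05 with 2 of 5 above 0. The 2 detected endothelium markers stood at 0.43 with both above 0, at mean levels of 7.12 to 7.81 in WT and 7.68 to 8.08 in J20. The 3 fibroblast markers stood at 0.34 with 2 of 3 above 0, the 4 macrophage markers at -0.13 with 1 of 4 and the 3 oligodendrocyte markers at -0.26 with 1 of 3. The part of RNA from these other cell types in the members' differences was not tested.

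**Figure D2:**
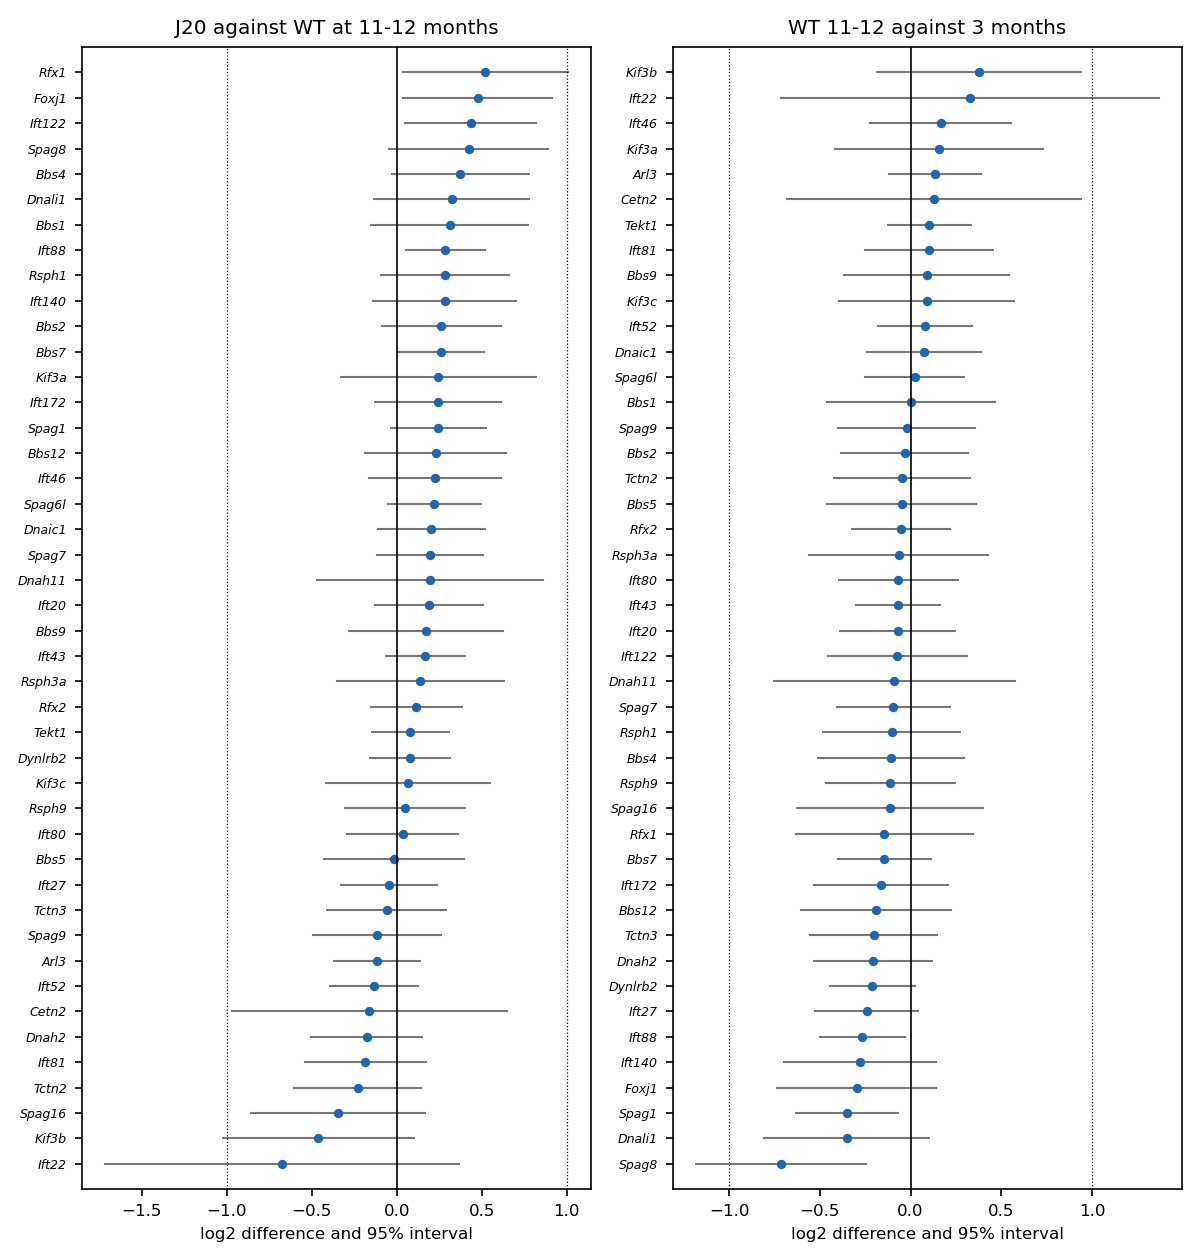
Log2 difference (points) with its 95% interval from limma (lines) for each of the 44 members, J20 minus WT at 11-12 months on the left and WT 11-12 minus 3 months on the right; dotted lines mark a 2-fold change. On the left 31 of 44 points lie above 0 and on the right 30 of 44 lie below 0, and no member passed after adjustment in either comparison.

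Between the genotypes at 3 months 0 of 44 members passed in limma, with 0 percent of all probes called, and 0 members had an unadjusted p under 0.05 against 0.898 percent of all probes. The median difference was 0.02 with 25 of 44 above 0, and -0.03 without WT animal 22. Groups did not overlap for 1 member, against 1.19 percent of all detected genes. This was Dnah2, an inner arm dynein heavy chain, at -0.32, which was -0.19 without J20 animal 2 and -0.17 with the deposited normalized values. At 5-6 months 0 of 44 passed, again with 0 percent of all probes called, and 1 member (Ift46) had an unadjusted p under 0.05 against 1.26 percent of all probes. The median there was 0.02 with 24 of 44 above 0, and -0.02 without J20 animal 18. In that comparison 0 members had groups without overlap against 0.668 percent of all detected genes. Over the 3 ages weighted equally, 0 of 44 passed (0 percent of all probes), 32 of 44 differences lay above 0 and the median was 0.06 against 0.02 over all genes. Ift46 and Ift88 (0.14) were the 2 members with an unadjusted p under 0.05 over the ages, against 1.98 percent of all probes. Ift46 was not well above background on any WT array of 3 months, so its value over the ages is not given. At 11-12 months the 95% interval lay within a 2-fold change either way for 41 members and within 1.5-fold for 22. Over the 3 ages it lay within 2-fold for all 44 and within 1.5-fold for 43. The intervals were counted over all 44, including Kif3b and Ift46, whose values close to background do not bound a fold.

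Ift46 is another IFT-B subunit, which in the alga Chlamydomonas carries outer dynein arms into the flagellum. At 5-6 months its values were 5.83, 5.80, 6.27 and 6.49 in J20 animals 4, 11, 18 and 25. In WT animals 3, 10, 17 and 24 they were 5.50, 5.42, 5.90 and 5.47. The groups overlapped, since WT animal 17 exceeded J20 animals 4 and 11. The difference was 0.53 (standard error 0.187, adjusted p = 0.9999 in limma), and it was 0.16 with the deposited normalized values. This gene lay close to background: it was detected on 4 of 4 J20 and 2 of 4 WT arrays at that age, and on none of the WT arrays at 3 months.

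Whether the genotype difference itself changed with age was tested as an interaction. No member passed (0 of 44, smallest adjusted p = 0.986 in limma, 0 percent of all probes called), and 0 members had an unadjusted p under 0.05 against 1.47 percent of all probes. The J20 minus WT difference at 11-12 months less that at 3 months was 0.62 on the log2 scale for Rfx1 (standard error 0.344), 0.51 for Foxj1 (standard error 0.310) and 0.28 for Ift88 (standard error 0.165), none of which passed.

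**Figure D3:**
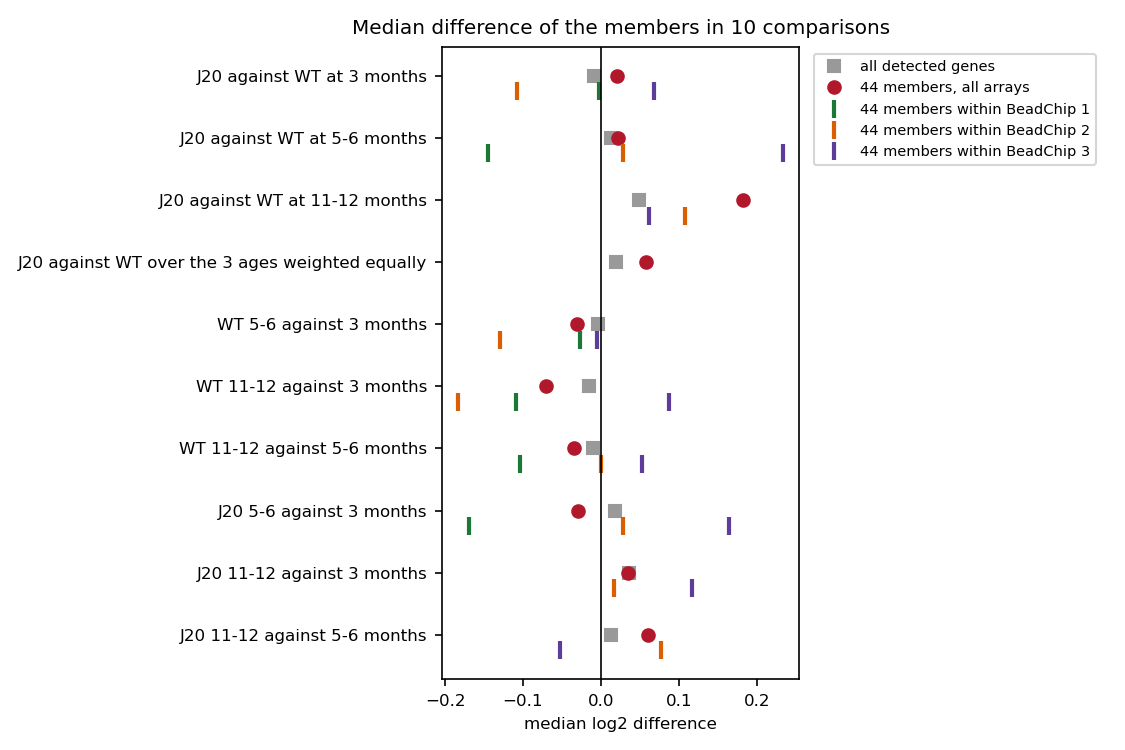
Median log2 difference (horizontal axis) in 10 comparisons (vertical axis) over the 44 members on all arrays (red), over all detected genes (grey squares) and over the members within single BeadChips (coloured bars). The J20 minus WT median at 11-12 months is 0.18 over all arrays and 0.11 and 0.06 within BeadChips 2 and 3, and the within-BeadChip medians of WT 11-12 against 3 months lie on both sides of 0.

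Between WT mice of 3 and 11-12 months 0 of 44 members passed in limma (smallest adjusted p = 0.574), with 0.105 percent of all probes called. The differences, 11-12 minus 3 months, were below 0 for 30 of 44 members, and the median was -0.07 against -0.01 over all detected genes. The median was -0.03 without WT 3-month animal 15 and -0.12 without WT 3-month animal 22. Within BeadChips 1, 2 and 3 that median was -0.11, -0.18 and 0.09. Members with an unadjusted p under 0.05 were Spag8, Spag1 and Ift88, all lower at 11-12 months, which is 6.82 percent of the members against 4.41 percent of all probes. By role, the difference was below 0 for 3 of 3 IFT-A genes (median -0.07), 3 of 3 transcription factors (-0.14) and 2 of 2 transition zone genes (-0.13). It was above 0 for 1 of 5 dynein genes (-0.21), 1 of 5 radial spoke and central pair genes (-0.11), 2 of 7 BBS genes (-0.05) and 4 of 9 IFT-B genes (-0.07). Of the kinesin-2 genes, Kif3b was not well above background on any WT array of 3 months and is given no direction. Ift46 was not well above background there either, although both genes are counted among the 44. The other kinesin-2 genes, Kif3a and Kif3c, had higher means at 11-12 months (10.41 and 8.66) than at 3 months (10.26 and 8.57). Their differences were -0.006 and -0.045 within BeadChip 1 and 0.44 and 0.37 within BeadChip 3. Arl3 (0.13, and 0.01 without WT animal 15) and Cetn2 (0.13) lay above 0. Of the tektin and doublet genes 1 of 2 lay above 0 (-0.31), and of Spag1, Spag7 and Spag9 0 of 3 (-0.09).

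Spag8 was measured at 8.23, 8.60 and 8.19 in WT animals 1, 15 and 22 of 3 months. At 11-12 months the 6 WT mice ran from 7.19 to 8.24 (median 7.57), and animal 12 alone reached the range of the younger mice. The difference was -0.71 (standard error 0.226, 95% interval -1.18 to -0.25, adjusted p = 0.574 in limma) and was below 0 within each BeadChip (-0.96, -0.64 and -0.54) and -0.58 without the 3 arrays, of which WT animal 15 is one. With the deposited normalized values it was -0.46. Between WT mice of 5-6 and 3 months it was -0.68 (standard error 0.244, adjusted p = 0.99996 in limma), a comparison that shares the 3-month arrays.

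Spag1, a factor that assembles dynein arms before they enter the cilium, stood at 7.17, 6.77 and 6.72 at 3 months and from 6.37 to 6.82 (median 6.53) at 11-12 months. The difference was -0.35 (standard error 0.135, adjusted p = 0.858 in limma), and -0.63, -0.39 and -0.02 within BeadChips 1, 2 and 3. Without WT animal 1, the highest of the younger mice, it was -0.21, and with the deposited normalized values it was -0.16. For Ift88 the 3-month values were 8.25, 8.02 and 8.21, above all 6 values at 11-12 months given above. Its difference was -0.27 (standard error 0.112, adjusted p = 0.969 in limma), -0.35, -0.19 and -0.26 within the BeadChips, and -0.18 with the deposited normalized values. Among the 44 members, Ift88 and Dynlrb2, a dynein light chain of the roadblock family, were the 2 without overlap between these ages, against 2.39 percent of all detected genes. The neuron markers stood at a median of 0.50 with 7 of 7 above 0 in this comparison and the astrocyte markers at 0.34 with 5 of 5 above 0. The endothelium markers stood at -0.55 with 0 of 2 above 0, the fibroblast markers at -0.29 with 0 of 3, the macrophage markers at 0.01 with 2 of 4 and the oligodendrocyte markers at 0.11 with 2 of 3. The epithelium markers stood at 0.04 with 5 of 8 above 0 and the ependyma markers at 0.02 with 3 of 5. The part of these cell types in the comparison was not tested. The WT arrays of 11-12 months enter both this comparison and the genotype comparison at that age, so the values of Ift88 in both rest on the same 6 animals.

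From 3 to 5-6 months in WT, 0 of 44 members passed in limma (0 percent of all probes called) and the median difference was -0.03, or -0.09 without animal 22 and 0.01 without animal 1. Spag8 was the 1 member with an unadjusted p under 0.05, against 2.57 percent of all probes, and 0 members had groups without overlap against 2.82 percent of all detected genes. From 5-6 to 11-12 months 0 of 44 passed (0.0436 percent of all probes called) and the median was -0.03, or -0.06 without animal 24. Ift88 was the 1 member with an unadjusted p under 0.05 (1.65 percent of all probes) and the 1 member without overlap (0.814 percent of all detected genes), with a difference of -0.23 (standard error 0.102, adjusted p = 0.9999 in limma).

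In J20 mice 0 of 44 members passed between 3 and 11-12 months in limma (smallest adjusted p = 0.810), with 0.0611 percent of all probes called. The median difference was 0.03, close to the 0.04 of all detected genes, with 26 of 44 above 0, and -0.03 without animal 35. It was 0.02 within BeadChip 2 and 0.12 within BeadChip 3. Members with an unadjusted p under 0.05 were Spag6l, Dnaic1 and Bbs12, all higher at 11-12 months, or 6.82 percent of members against 5.31 percent of all probes. By role, the difference was above 0 for 3 of 3 IFT-A genes (median 0.16), 6 of 7 BBS genes (0.11), 4 of 5 radial spoke and central pair genes (0.03) and 2 of 5 dynein genes (-0.05). It was also above 0 for 2 of 3 transcription factors (0.22), 5 of 9 IFT-B genes (0.01) and 0 of 2 transition zone genes (-0.15).

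Dnaic1 encodes an intermediate chain of the outer dynein arm, the motor that drives ciliary beating. It stood at 8.94, 9.05, 9.04 and 8.96 in J20 animals 2, 9, 16 and 23 of 3 months. At 11-12 months it stood at 9.39, 9.18 and 9.57 in animals 21, 28 and 35. All 3 older mice were above all 4 younger ones. The difference was 0.38 (standard error 0.163, adjusted p = 0.810 in limma), 0.35 within BeadChip 2 and 0.42 within BeadChip 3. With array weights Dnaic1 passed at 0.49 (adjusted p = 0.0395 in limma), in a fit that called 2.23 percent of all probes, 1.46 percent higher at 11-12 months. A further Dnaic1 probe had r = 0.65 with it over 24 arrays.

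Spag6l, a protein of the central pair, was measured at 11.39, 11.61, 11.37 and 11.45 in the same 3-month mice and at 11.99, 11.67 and 11.77 at 11-12 months. The older mice were again all above the younger. The difference was 0.36 (standard error 0.142, adjusted p = 0.810 in limma), 0.62 within BeadChip 2, 0.27 within BeadChip 3 and 0.27 without the 3 arrays. A further Spag6l probe had r = 0.26 with this one over 24 arrays. Bbs12, a chaperonin-like protein that helps assemble the BBSome, stood at 0.47 (standard error 0.215, adjusted p = 0.810 in limma) with overlapping groups, at 0.26 without animal 21 and at 0.20 with the deposited normalized values. Groups did not overlap for 6 members (Dnaic1, Spag6l, Ift122, Spag16, Bbs5 and Ift52), the first 3 higher and the last 3 lower at 11-12 months, while 9.15 percent of all detected genes did not overlap.

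Spag16, which also belongs to the central pair, had values of 8.09, 8.44, 8.14 and 8.37 in J20 mice of 3 months. At 5-6 months they were 8.08, 7.80, 6.75 and 7.71, and at 11-12 months 7.74, 7.66 and 7.80. Every older J20 value lay below every 3-month value, by a narrow margin for animal 4. The difference from 3 to 5-6 months was -0.67 (standard error 0.246, adjusted p = 0.961 in limma), the lowest value being that of animal 18, which is one of the 3 arrays that stood apart. Without it the difference was -0.39, and with the deposited normalized values it was -0.41. Its difference from 3 to 11-12 months was -0.52 (standard error 0.266, adjusted p = 0.810 in limma), and both comparisons share the 3-month arrays. From 3 to 5-6 months 0 of 44 members passed (0 percent of all probes called) with a median of -0.03, or 0.03 without J20 animal 9. Ift46 (0.61, standard error 0.187, and 0.18 with the deposited normalized values), Spag16 and Spag1 (-0.33, standard error 0.135, and -0.15 with those values) were the 3 members with an unadjusted p under 0.05, against 3.18 percent of all probes. Spag16 and Spag1 were the 2 without overlap, against 2.09 percent of all detected genes. From 5-6 to 11-12 months 0 of 44 passed (0.0349 percent of all probes called), and the median was 0.06, or 0.01 without J20 animal 11 and 0.10 without J20 animal 18. Dnaic1 was the 1 member with an unadjusted p under 0.05 (0.46, standard error 0.163, adjusted p = 0.9998 in limma), against 1.34 percent of all probes, and 0 members were without overlap against 1.93 percent of all detected genes.

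Members differed in how much they varied from animal to animal. Ift22 had the largest SD over the 24 arrays (0.709), from 7.39 to 9.92, followed by Cetn2, a centrin of the basal body (0.536), and Dnah11, an outer arm heavy chain (0.440). The most even were Tekt1, a tektin of the doublet microtubules (0.120), Ift43 of IFT-A (0.128) and Arl3, a GTPase that unloads lipid-anchored cargo inside the cilium (0.141). This ranking holds for the brightest probes only. A further detected probe of Arl3 had an SD of 0.504, and one of Tekt1 had 0.211. Members did not move as one block: the median Pearson r over the 946 pairs of members was 0.08 across 24 arrays, and 0.09 without the 3 arrays that stood apart.

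Values were also set against the first principal component of the whole array. Its r was 0.72 with the upper quartile of log2 intensity per array and r = 0.87 with the mean of the 8 epithelium markers (24 arrays, which share these libraries). Both values are given over the 24 arrays only. The epithelium markers and the members are among the probes that define the component. The members split in opposite directions on it. Those with r above 0.5 were 10 in number, led by Ift22 (0.97) and Tctn2 (0.89), and those with r below -0.5 were 17, led by Rsph1 (-0.91), Kif3a (-0.89) and Rfx1 (-0.87). Without the 3 arrays that stood apart these values were 0.94, 0.75, -0.83, -0.87 and -0.72. In all 61.4 percent of members and 55.0 percent of all detected genes had an absolute r above 0.5, so the members were close to the background in this, and without the 3 arrays the shares were 38.6 and 37.3 percent. Foxj1 had r = -0.70, and -0.46 without the 3 arrays, and Ift88 had r = -0.04.

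**Figure D4:**
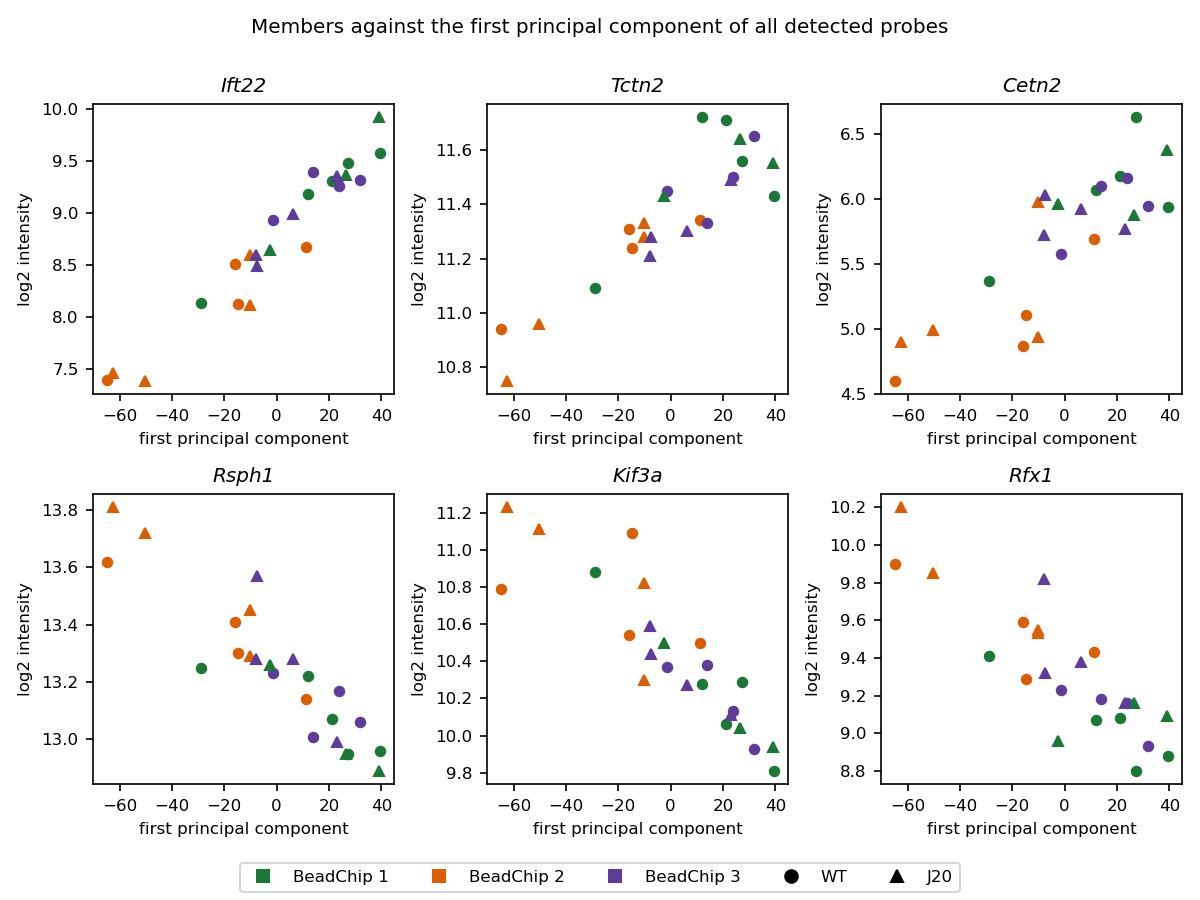
Log2 intensity (vertical axis) of 6 members against the first principal component of all tested probes (horizontal axis, no unit), 1 point per array, with colour for the BeadChip and shape for the genotype. Ift22, Tctn2 and Cetn2 run upward and Rsph1, Kif3a and Rfx1 run downward, and the 3 arrays at the far left lie on BeadChip 2.

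The closest pairs of members came from different complexes as well as from one. Bbs4 and Ift20, an IFT-B subunit that also works at the Golgi, had r = 0.88, Ift22 and Tctn2 0.87, and Kif3a and Kif3c 0.86, while Ift22 and Rsph1 had -0.92 (24 arrays each). Without the 3 arrays these were 0.75, 0.74, 0.81 and -0.85. Rfx1 and Ift122 had r = 0.85 and Foxj1 and Ift140 0.83, or 0.76 and 0.73 without the 3 arrays. Brightest probes of one complex lay on both sides of the component. Within IFT-B, Ift52 and Ift81 had r = 0.75 and 0.61 (0.40 and 0.42 without the 3 arrays), and Ift172 and Ift20 had -0.86 and -0.73 (-0.85 and -0.46). Another detected probe of Ift172 had r = 0.48 and one of Ift20 0.55, so the side of these genes depended on the probe. Probes of one gene did not always go together either. For the 13 members with over 1 detected probe, r between the brightest probe and another ran over 17 pairs with a median of 0.49, and it was below 0 for 5 pairs. Ift20 had one probe with r = -0.40 and another with r = 0.65 to its brightest, and its genotype difference at 11-12 months was 0.19 on the brightest probe, -0.33 on the first of these and 0.21 on the other. The probes of Kif3c had r = 0.84 and those of Kif3a 0.79. Ift20, Ift172, Ift27 and Spag9 each had a probe pair with r below 0 over the 24 arrays. Without the 3 arrays the Ift172 and Ift27 pairs stood at 0.41 and 0.17, the Ift20 and Spag9 pairs remained below 0, and those of Arl3 (-0.24) and Tctn2 (-0.26) were below 0. The other values of these genes are those of the brightest probe.

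The 7 members whose promoters hold the X-box letters shown above were on both sides of the component: Ift22 and Tctn2 had its highest r, and Bbs4 and Bbs7 had r = -0.82 and -0.72 (-0.67 and -0.54 without the 3 arrays). The J20 minus WT differences at 11-12 months were 0.37 for Bbs4, 0.31 for Bbs1, 0.26 for Bbs7, 0.22 for Spag6l, -0.06 for Tctn3, -0.23 for Tctn2 and -0.68 for Ift22, none of which passed in limma. Without J20 animal 21 they were, in the same order, 0.10, 0.41, 0.16, 0.13, -0.04, -0.13 and -0.21. Bbs4 stood at 0.86 within BeadChip 2 and 0.02 within BeadChip 3, Bbs1 at 0.11 with the deposited normalized values, and Tctn3 at 0.05 without WT animal 12. On another detected probe the difference was -0.09 for Spag6l and 0.21 for Tctn3, opposite to their brightest probes, and -0.10 for Tctn2.

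**Figure D5:**
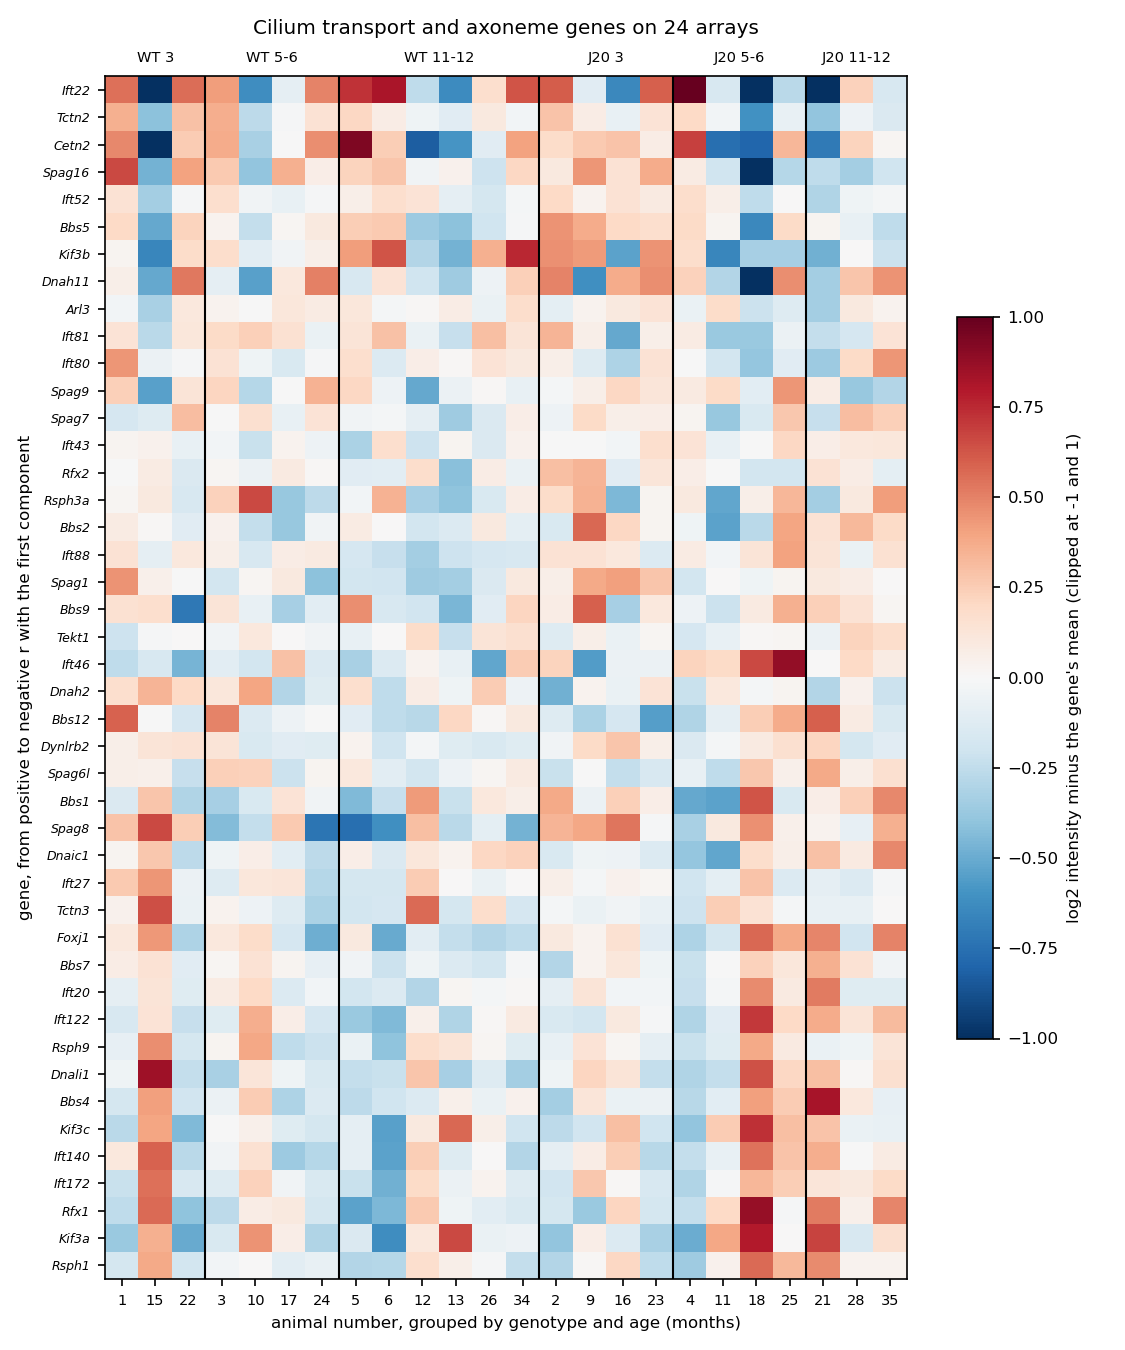
Log2 intensity minus the gene's mean over 24 arrays (colour, clipped at -1 and 1) for the 44 members (rows, from positive to negative r with the first principal component) in each animal (columns, by genotype and age). WT 3-month animal 15, J20 5-6-month animal 18 and J20 11-12-month animal 21 are low in most of the upper rows and high in most of the lower rows.

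The mean of the centred values of the 44 members, which gives each gene equal weight, was 0.02 ± 0.07 (SD, n = 3), -0.02 ± 0.05 (n = 4) and -0.05 ± 0.06 (n = 6) in WT mice of 3, 5-6 and 11-12 months. In J20 mice it was 0.04 ± 0.03 (n = 4), 0.00 ± 0.11 (n = 4) and 0.05 ± 0.03 (n = 3). At 11-12 months the WT arrays ran from -0.13 to 0.03 and the J20 arrays from 0.03 to 0.09, and the highest WT value (0.025) lay just under the lowest J20 value (0.034). The members were chosen by name with earlier results known, and no test of this mean was made. Across the 24 arrays its r with the mean of the astrocyte markers was -0.54, with the neuron markers -0.48, with the endothelium markers 0.34, with the macrophage markers -0.32, with the oligodendrocyte markers -0.30, with the ependyma markers 0.24 and with the epithelium markers -0.19.

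Foxj1 was the member most like the rest, with r = 0.68 to the mean of the other members over 24 arrays, followed by Bbs9 (0.59) and Bbs2 (0.54). The least like them were Ift22 (-0.46), Arl3 (-0.41) and Spag16 (-0.31). Without the 3 arrays Foxj1 was at 0.72, Ift22 at -0.27, Arl3 at -0.33 and Spag16 at -0.10. Outside the members, the 10 detected genes with the highest r to the members' mean over the 24 arrays were Rflna (0.82), Krt18 (0.79), Prr14 (0.78), Elp2 (0.77), Mta2 (0.76), Dnajb13 (0.75), Thnsl2 (0.75), Mars1 (0.74), Tmem86a (0.74) and Hps1 (0.74). Dnajb13 encodes a radial spoke protein, and Krt18 is a keratin of simple epithelia. Without the 3 arrays these 10 ran from 0.77 to 0.83.

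Cilium genes outside the name rule were taken from lists by role. The lists covered IFT-B, kinesin and dynein-2 motors, the BBSome and partners, small GTPases, the transition zone, centriole and basal body, and transcription factors. They also covered axonemal dynein, dynein arm assembly, radial spoke and central pair, doublet and regulatory complex genes. Of 66 such detected genes 0 passed in limma in any of the 11 tests, with the shares of all probes called as given above. In J20 against WT at 11-12 months 31 of 66 lay above 0 and their median was -0.01, against 0.18 for the members. By role, 1 of 3 transcription factors (median -0.03), 0 of 2 BBSome genes (-0.24) and 0 of 1 axonemal dynein (-0.11) lay above 0. For radial spoke and central pair genes the count was 4 of 6 (0.17). It was 0 of 3 for IFT-B genes (-0.11) and 4 of 9 for transition zone genes (-0.05). Regulatory complex genes stood at 4 of 4 (0.32), centriole and basal body genes at 7 of 10 (0.16) and small GTPases at 2 of 3 (0.20). Dynein arm assembly genes stood at 5 of 9 (0.01), doublet genes at 4 of 12 (-0.07) and motor genes at 0 of 5 (-0.10). Single genes of these lists are named after their values were seen. The smallest adjusted p was that of Cc2d2a, a transition zone gene, at -0.61 (standard error 0.161, adjusted p = 0.323 in limma) between WT mice of 11-12 and 3 months. Cfap53, a protein inside the doublet microtubules, stood at 0.51 and Wdr34, an intermediate chain of the dynein-2 motor, at -0.41 in J20 against WT at 11-12 months (adjusted p = 0.700 for each in limma).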

How the data were processed

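Members, lists and tests were chosen with earlier results of these data known. Per the labels' protocols, RNA from choroid plexus tissue was extracted with a Qiagen micro kit and biotinylated cRNA was hybridized to Illumina arrays, 1 per animal. Per the file headers, the authors deposited a linear intensity for each of 25697 probes on every array, with a detection p-value beside it. The deposited series matrix holds log2 values, which equal the quantile-normalized log2 of those intensities to within 5e-09. The sources used here name no scanner or summary software.

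Intensities were processed with neqc in limma 3.58.1 (R 4.3.3), which corrects background from the detection p-values, adds an offset of 16, quantile normalizes and takes log2. Tests covered the 11464 probes that 3 or more arrays detected at p under 0.01. A single limma model with 6 group means and no covariate gave 10 comparisons and the interaction, and Benjamini-Hochberg adjustment ran over the 11464 probes, a call being an adjusted p under 0.05. Standard errors and 95% intervals are limma's. Symbols were updated by gene identifier for 23962 probes, and 1719 probes had none. Alternatives were the BeadChip as a block, array weights, the series matrix, no detection filter, every probe of a member, updated symbols alone, each array left out, and 3 arrays left out together. Named members are those with the 2 largest positive and negative moderated statistics per comparison, Foxj1, the Rfx genes and Ift88, and the extremes of SD and of correlation. Other members are named as group leaders after their values were seen. The number of arrays limits the precision. Arl13b, Arl6 and Mks1 are not analysed here. The fit was tested on simulated data.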

Additional observations from a re-analysis of the deposited data

Results flagged for a closer look

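Of 112 groups of 4 or 6 values checked, 6 had an animal whose gap to its nearest neighbour was large against the range of its group, and chance gives about 1 in 20. In J20 mice of 3 months, Dnah11 stood at 5.60 in animal 9 against 6.58 to 6.71 in the others. Kif3b stood at 4.60 in animal 16 against 5.56 to 5.59, close to background. Ift88 stood at 7.97 in animal 23 against 8.21 to 8.25, and Ift43 at 10.98 in animal 23 against 10.79 to 10.81. The mean of the 44 members stood at 0.08 in animal 9 against 0.02 to 0.03. In WT mice of 5-6 months, Ift88 stood at 7.95 in animal 10 against 8.17 to 8.20 in the others.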

How the results depend on the processing

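The count of members called stayed at 0 in all 11 tests with the BeadChip as a block, with series matrix values, without the detection filter, on every tested probe of a member, without any single array, and without WT 3-month animal 15, J20 5-6-month animal 18 and J20 11-12-month animal 21 together, a setting chosen after seeing the data. With array weights it was 2 for J20 against WT at 11-12 months (Rfx1 and Foxj1) and 1 for J20 11-12 against 3 months (Dnaic1). In that fit all probes called numbered 267 and 256, against 0 and 7 in the unweighted one, and 72 against 12 for WT 11-12 against 3 months. The cause was not tested. The median over members for J20 against WT at 11-12 months was 0.18, and 0.10 with series matrix values. With single arrays left out it ran from 0.13 to 0.22. The median for J20 against WT at 5-6 months ran from -0.0217 to 0.0957, the latter without J20 animal 4, and that for J20 5-6 against 3 months from -0.0495 to 0.0345, the latter without J20 animal 9. Leaving out single arrays also took the median across 0 for J20 against WT at 3 months (-0.0277 to 0.0581), WT 5-6 against 3 months (-0.0948 to 0.01) and J20 11-12 against 3 months (-0.0267 to 0.06). No called value changed direction, since none was called under the main settings. Updated symbols alone gave the same 44 members. No paired analysis was possible because the groups share no animal number. BeadChips as assigned here, which they do share, entered as a block and through differences within a BeadChip.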
